A study of Homo sapiens with 2 samples.

Results

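Long noncoding RNAs are transcripts that are spliced and processed much like messenger RNAs but are not read as templates for known proteins. Antisense RNAs are the members of this class that are transcribed from the strand opposite a protein-coding gene, and some start from the same promoter region as that gene and run in the other direction. A further group carries small nucleolar RNAs (snoRNAs), which guide the chemical modification of ribosomal RNA, inside introns that are cut out of the host transcript. The genes described here were chosen by their symbol and by their level on the arrays. The symbol had to start with LINC or SNHG and a number, or with PCAT or DLEU, or be one of a short list of individually named RNAs such as MALAT1 and GAS5, or end in a suffix that marks antisense, intronic or overlapping RNAs (-AS1, -AS2, -AS3, -IT1, -OT1). The higher of the 2 deposited log2 values had to be at least 7.0. Because measured values thus chose the genes, their levels and differences are given as descriptions. Of 13864 genes named on the arrays, 633 had a matching symbol and 143 of these reached the level limit. They comprised 83 antisense and overlapping RNAs, 50 LINC genes, 9 snoRNA host genes and MALAT1.

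RNA came from PC3 cells, a human line from a prostate cancer metastasis that grows without androgen. The cells of the miR-95 group stably overexpressed miR-95, and those of the control group stably overexpressed a control microRNA. Both lines were grown in DMEM with serum, and each was measured on 1 Affymetrix gene array. With 1 array per group there is no replicate error, no test and no p-value, so every difference below describes these 2 arrays, and differences between cultures and an effect of miR-95 cannot be told apart. The labels do not say whether either line is a clone or a pool, and no named probe set read miR-95 itself.

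RefSeq classed 142 of the 143 genes as long noncoding RNA and 1 as antisense RNA, so the annotation bears the label out. Of 5 markers of the line 4 were named on the arrays (KRT8, KRT18, EPCAM, VIM), and they read between 7.81 and 9.55 in miR-95 cells and between 7.86 and 9.53 in control cells. The androgen-driven prostate genes KLK3 and KLK2 (2 of 5 named), the leukocyte gene CD14 (1 of 4) and the endothelial gene VWF (1 of 3) stayed below 7.0 on both arrays. KLK3 had 6.66 in miR-95 cells and 6.53 in control cells, and KLK2 had 6.56 and 6.62, not far below the limit. CD14 had 5.26 and 5.27 and VWF 5.82 and 5.81, in the same order of arrays. Of 4 fibroblast markers 2 were named: DCN had 2.76 in miR-95 cells and 2.90 in control cells, and LUM had 6.04 in miR-95 cells and 7.33 in control cells. LUM was thus lower on the miR-95 array (-1.325), and its part in the results below was not tested. Fewer cells of a kind and less RNA per cell cannot be told apart in such bulk RNA. Values are given as deposited. A difference is the log2 value in miR-95 cells less that in control cells, taken after each array was centred on its median over named genes, a step that lowers the miR-95 array by 0.035 relative to the control array. Without it values between -0.035 and 0, such as those of FOXN3, PCNA-AS1, LINC01106 and SNHG5, turn positive. As a guide to disagreement of measurement, the probe sets of 85 genes read more than once gave differences with a median half-range of 0.07, which holds no variation between cultures.

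The small RNA that separates the lines is shown here with its seed, the stretch that pairs with target transcripts, in capitals (bases 2 to 8). The mature sequences are from RefSeq (GRCh38.p14, chr4:8005312-8005333 and chr4:8005347-8005367, minus strand).

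hsa-miR-95-3p: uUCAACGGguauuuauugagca

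hsa-miR-95-5p: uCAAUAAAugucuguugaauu

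The transcripts of the 143 genes were not searched for matches to these seeds, because no transcript sequences were used here.

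Of the 143 genes, 1 was at least 1.5-fold higher on the miR-95 array and 0 were at least 1.5-fold lower. Among all 8032 named genes at the same level limit, 0.398% passed 1.5-fold on the higher side and 0.884% on the lower side, so the count among the noncoding RNA genes is near the background. At a 1.3-fold limit 7 genes were higher and 4 lower, together 7.69% of the 143 against 5.19% of all 8032. Of these 11 genes, FOXN3-AS1, LINC00173, LINC00886, HAS2-AS1 and LINC00520 reached the level limit only on the array where they were higher. Among genes at the limit on both arrays the shares past 1.3-fold were 4.8% of 125 noncoding RNA genes and 4.67% of all 7730. Within 0.1 of zero lay 64 of the 143 (44.8%), against 47.5% of all 8032. The quartiles of the 143 were -0.1 and 0.125. The median difference was 0.025, and 55.2% of the genes were positive. Over all 8032 genes the median was -0.025 and 41.7% were positive. In the values as deposited, without centring, 60.8% of the 143 and 50.2% of all 8032 were positive. A further 72 genes that RefSeq calls long noncoding RNA but that have other kinds of symbol also had a median of 0.025, with 54.2% positive.

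**Figure D1:**
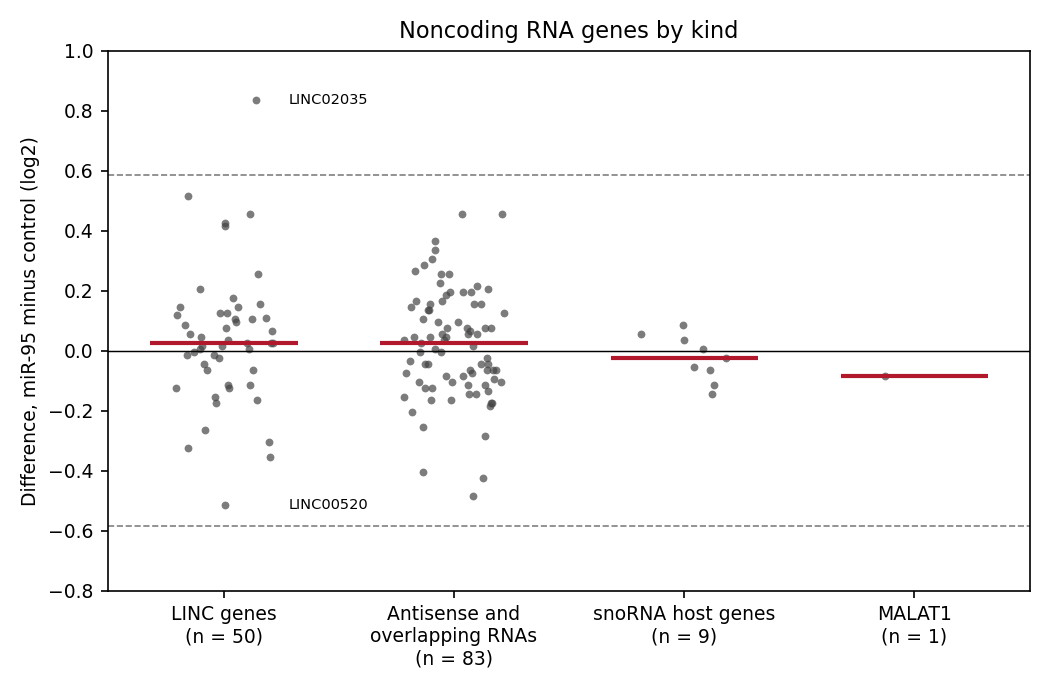
Each point is 1 of the 143 noncoding RNA genes, placed by its difference between the miR-95 and the control array (log2, vertical axis) within its kind of gene (horizontal axis). Red lines are medians and dashed lines mark 1.5-fold, which LINC02035 alone passed, at 0.835.

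The level limit itself shapes these numbers. It was reached on both arrays by 125 genes, on the miR-95 array alone by 10 and on the control array alone by 8. The genes of the last 2 groups had to be higher on the array through which they entered, before centring. Among the 125 genes at the limit on both arrays the median difference was 0.015, against -0.035 over the 7730 named genes that met the same condition. Just inside the limit, BABAM2-AS1 had 7.0 in miR-95 cells and 6.80 in control cells, TMEM254-AS1 had 6.86 and 7.0, and MZF1-AS1 had 7.0 and 6.87, in the same order of arrays. MIF-AS1 had the same values as TMEM254-AS1. Just outside it lay ZNF407-AS1 with 6.99 in miR-95 cells and 6.79 in control cells, LINC01743 with 6.99 and 6.77, and EPB41L4A-AS1 with 6.98 and 6.94. Below the limit were 490 matching genes, with a median difference of -0.035, and over all named genes below it the median was -0.025. Of those 490, 3 were at least 1.5-fold higher (LINC00921 and LINC01538 at 0.695, A1BG-AS1 at 0.585) and 1 at least 1.5-fold lower (LINC00922 at -0.585). Together they were 0.816% of the 490, against 1.44% of all 5832 named genes below the limit, so the count does not exceed the background. These 4 are named after their values were seen, and all of them read below 6.5 on both arrays.

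Several of the best known long noncoding RNAs could not be described. No named probe set read NEAT1, the scaffold of nuclear paraspeckles, H19, an imprinted RNA of growth control, PVT1, a neighbour of MYC, or TUG1. PCA3, a prostate cancer marker transcript used in urine tests, had 4.6 in miR-95 cells and 4.85 in control cells. MEG3, an imprinted RNA, had 3.73 in miR-95 cells and 3.91 in control cells, and DLEU1, from a region often deleted in leukaemia, had 6.12 and 6.27. The prostate cancer associated transcripts PCAT18 and PCAT4 likewise read below 4.6 on both arrays. DLEU2L had 3.89 in miR-95 cells and 4.18 in control cells. The 6 transcripts that were read thus lay below the level limit, and none is counted among the 143.

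LINC02035 stood highest among the LINC genes, the class named only by number because the first annotation found no neighbour or function to name them after. It had 8.93 on the miR-95 array, against 8.06 on the control array, a difference of 0.835 or 1.78-fold. That placed it 6th from the top of all 8032 genes, and 1 probe set read it. Its protein-coding neighbour SLC49A4, a membrane transporter, had 12.26 in miR-95 cells and 12.12 in control cells (0.105). Both values of LINC02035 were more than 1 log2 unit above the limit, so its place does not come from the limit. LINC01144 followed with 7.99 in miR-95 cells and 7.44 in control cells (1.43-fold). The next LINC gene, LINC00173, averaged 7.29 in miR-95 cells and 6.80 in control cells, but its 2 probe sets disagreed. One gave 7.5 in miR-95 cells and 6.63 in control cells, a difference of 0.835, and the other 7.07 and 6.96, a difference of 0.075. The half-range of 0.38 between them was the widest among the 9 noncoding RNA genes read by several probe sets, and the mean difference of 0.455 rests on 1 of the 2.

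LINC00261, a transcript of endoderm and its derivatives, is encoded beside FOXA2, a pioneer transcription factor of endoderm, and has been described as promoting FOXA2 transcription during endoderm differentiation. On these arrays LINC00261 had 8.17 in miR-95 cells and 7.71 in control cells, a difference of 0.425 or 1.34-fold. FOXA2 had 9.99 in miR-95 cells and 9.52 in control cells, a difference of 0.435. The gene and its neighbour were thus higher on the miR-95 array by nearly the same amount. PAX1, the protein-coding neighbour on the other side, lay below the limit with 6.17 in miR-95 cells and 6.22 in control cells. LINC00886, next to TIPARP, had 7.27 in miR-95 cells and 6.82 in control cells (0.415), while TIPARP, a mono-ADP-ribosyltransferase induced by dioxin, differed by -0.085. LINC00665, which encodes a micropeptide that binds the phosphatase inhibitor CIP2A, had 7.23 in miR-95 cells and 6.94 in control cells. Its zinc finger neighbours went opposite ways, ZNF146 at 0.255 and ZFP14 at -0.195. LINC00941, an RNA described as holding back keratinocyte differentiation, differed by 0.205, and its neighbours CAPRIN2 by 0.235 and TSPAN11 by -0.075. LINC00665 and LINC00941 are named after their values were seen. LINC00886 and LINC00665 reached the limit on the miR-95 array alone, so the limit fixed their direction before centring.

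The 300 bases around the starts of LINC02035, the most different of the 143 genes, and of LINC00261, which differed like its neighbour, are shown because these genes have no antisense partner in their name to share a promoter with. The windows were searched on both strands for the GC box (GGGCGG), the CCAAT box (CCAAT) and the TATA box (TATAAA), which do not overlap in these windows, and capitals mark every match. The windows run from 250 bases before to 50 bases from the start and are credited to RefSeq, GRCh38.p14 (LINC02035 at chr3:122886263-122886562, plus strand, LINC00261 at chr20:22578593-22578892, minus strand).

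LINC02035: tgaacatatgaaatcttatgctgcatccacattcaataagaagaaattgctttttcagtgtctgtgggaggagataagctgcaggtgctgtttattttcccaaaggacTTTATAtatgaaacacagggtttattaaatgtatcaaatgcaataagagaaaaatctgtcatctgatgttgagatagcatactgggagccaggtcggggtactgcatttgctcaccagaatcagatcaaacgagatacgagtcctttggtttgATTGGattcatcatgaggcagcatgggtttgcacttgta

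LINC00261: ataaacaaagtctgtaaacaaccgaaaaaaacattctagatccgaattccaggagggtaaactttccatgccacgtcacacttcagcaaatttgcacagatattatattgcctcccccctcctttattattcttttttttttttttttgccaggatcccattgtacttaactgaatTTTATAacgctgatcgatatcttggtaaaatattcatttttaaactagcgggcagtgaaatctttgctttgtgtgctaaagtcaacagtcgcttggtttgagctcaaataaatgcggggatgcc

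Neither window held a GC box, which 44.6% of the 27305 genes in the promoter table and 60.7% of the 117 noncoding RNA genes found there have. Each held 1 TATAAA on the reverse strand, against 12% of all genes and 6.0% of the 117 with a match on either strand. LINC02035 also had 1 CCAAT on the reverse strand, a match that 35.7% of all genes and 38.5% of the 117 share. The windows were poor in G and C, at 39.3% for LINC02035 and 37.0% for LINC00261. A match of letters is a description of the sequence, and no factor was measured here.

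At the other end, LINC00520 had the lowest difference of the 143 genes. Known also as LEENE, it is an RNA that raises expression of endothelial nitric oxide synthase in endothelial cells. It had 6.81 in miR-95 cells and 7.29 in control cells, a difference of -0.515 or 1.43-fold lower, and it reached the limit through the control array alone. LINC00265 had 7.88 in miR-95 cells and 8.20 in control cells (-0.355), and LINC00997 had 9.18 and 9.47 (-0.325). LINC00857, which many carcinoma studies describe as growth promoting, had 10.79 in miR-95 cells and 11.06 in control cells (-0.305). LINC00674 differed by -0.265. These LINC genes were picked for their low differences and their protein-coding neighbours were not, so smaller neighbour differences can come from the choice alone. RALA and CDK13 beside LINC00265 differed by -0.075 and -0.085, and AVL9 and KBTBD2 beside LINC00997 by -0.105 and -0.055. ANXA11 beside LINC00857 differed by -0.085, while AMZ2 beside LINC00674 differed by 0.085. LINC00467, an RNA with a known micropeptide, is named after its values were seen. It differed by -0.165, and its neighbour TRAF5, a signalling adaptor of tumour necrosis factor receptors, by -0.365.

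**Figure D2:**
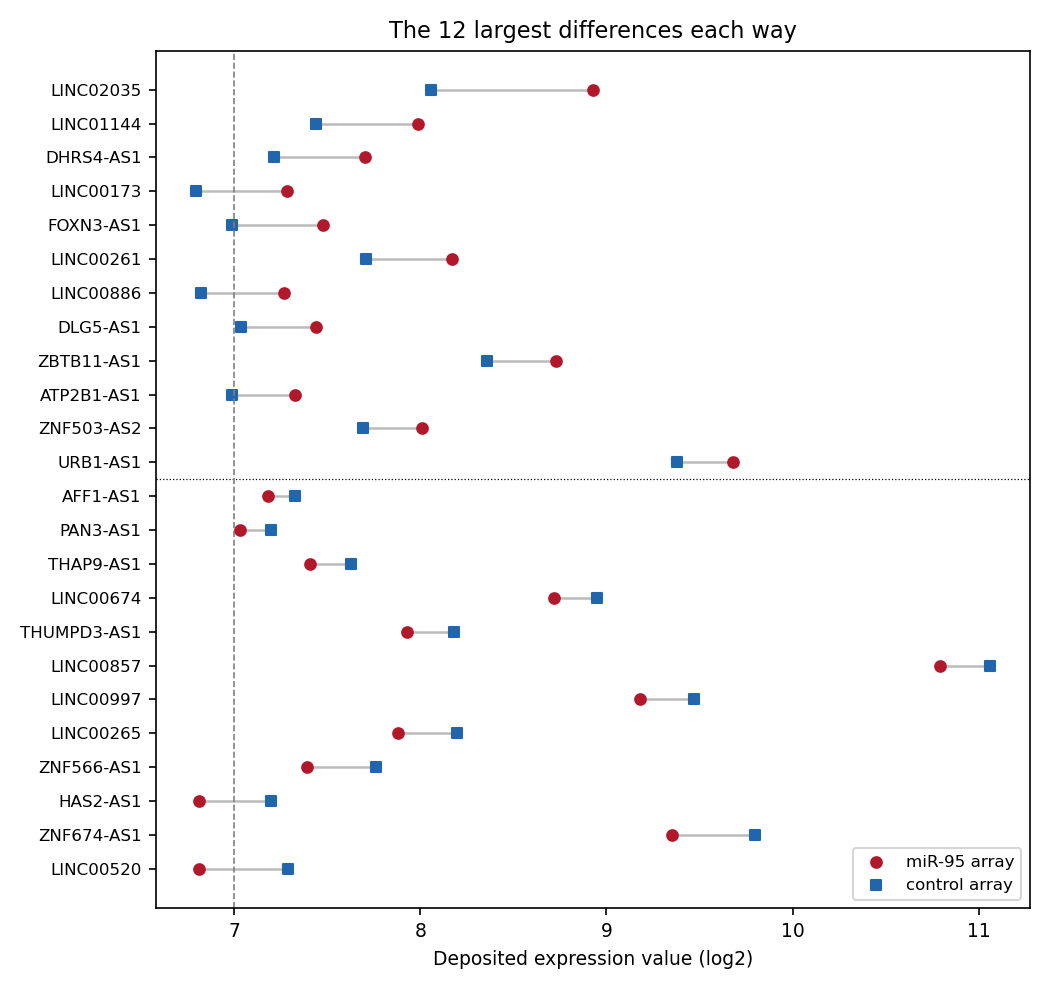
Deposited log2 values (horizontal axis) on the miR-95 array (red circles) and the control array (blue squares) for the 12 noncoding RNA genes with the largest positive differences (upper block) and the 12 with the largest negative ones (lower block). The dashed line is the level limit of 7.0, which LINC00173, FOXN3-AS1, LINC00886 and ATP2B1-AS1 reached on the miR-95 array alone and HAS2-AS1 and LINC00520 on the control array alone.

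Across the LINC genes, the snoRNA hosts and MALAT1, 33 genes had at least 1 neighbouring protein-coding gene at the level limit, which made 41 pairs. In 26 of them (63.4%) both genes differed in the same direction. Among 3437 pairs of neighbouring protein-coding genes the share was 55.9%. Pairs that share a gene are not independent, so the 2 shares are given as descriptions.

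Of the 83 antisense and overlapping RNAs, 55 had their sense gene named on the arrays, and for 51 the sense gene also reached the level limit. The antisense gene and its sense gene differed in the same direction in 22 of these 51 pairs (43.1%) and in opposite directions in 29. One of the 22 is the overlapping RNA ANXA2R-OT1, which lies on the same strand as ANXA2R, and without it 21 of 50 pairs had the same direction. Both were higher on the miR-95 array in 9 pairs and both lower in 13. In 17 pairs the antisense gene was higher and the sense gene lower, and in 12 the reverse held. The antisense gene was thus positive in 26 of the 51 pairs and the sense gene in 21. No share for unrelated genes was taken, so the 43.1% is a description only. Pearson's r between the 2 differences was 0.161 and Spearman's coefficient -0.031, as a description over 51 pairs that share the same 2 arrays. Without HAS2-AS1 and HAS2 the r was -0.015 over 50 pairs, so the weak positive value rests on that pair. At the 1.3-fold limit, which 5.19% of all 8032 genes passed either way, 4 of the 51 antisense genes and 1 of the 51 sense genes lay. By RefSeq's gene spans 42 of the 51 pairs overlap. The labels do not say whether the labelled target kept the strand, so signal from an antisense RNA and from an overlapping sense transcript cannot be told apart.

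**Figure D3:**
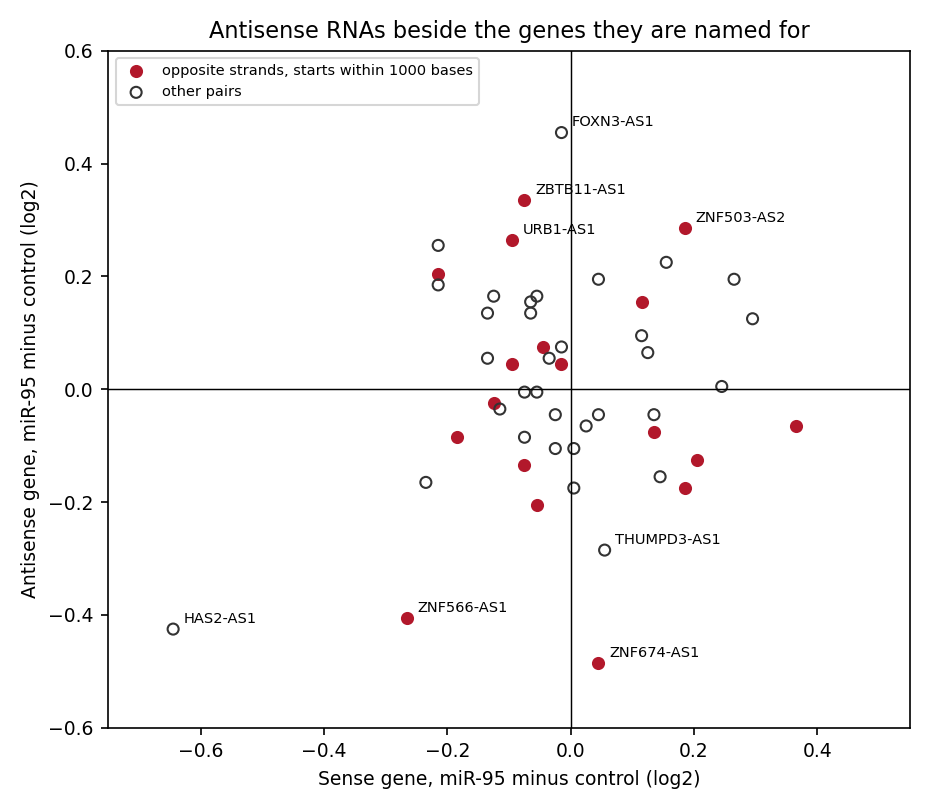
Each point is 1 of the 51 pairs (ANXA2R-OT1 included), with the difference of the sense gene on the horizontal axis and that of the antisense gene on the vertical axis (both log2, miR-95 minus control). Filled points are the 18 pairs on opposite strands whose starts lie within 1000 bases, and the points fill all 4 quadrants, with HAS2-AS1 alone at the far left.

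HAS2-AS1 is transcribed across the start of HAS2, the main enzyme of hyaluronan synthesis, and has been described as supporting HAS2 transcription in smooth muscle cells. HAS2-AS1 had 6.81 in miR-95 cells and 7.20 in control cells, a difference of -0.425 or 1.34-fold lower. HAS2 had 7.27 in miR-95 cells and 7.88 in control cells, a difference of -0.645 or 1.56-fold lower. It was the only pair with both genes past 1.3-fold. HAS2-AS1 counted only through the control array, and the spans of the pair overlap.

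The antisense RNAs ZNF674-AS1, ZNF566-AS1 and URB1-AS1 each leave from a start region that they share with their sense gene without overlap. ZNF674-AS1 starts 69 bases from ZNF674, and ZNF566-AS1 starts 66 bases from ZNF566, in both cases running away from the partner. Both sense genes encode zinc finger proteins with the KRAB repressor domain, a family that silences repeated elements. ZNF674-AS1 had 9.35 in miR-95 cells and 9.80 in control cells (-0.485, 1.40-fold lower), while ZNF674 had 7.52 and 7.44 (0.045). ZNF566-AS1 had 7.39 in miR-95 cells and 7.76 in control cells (-0.405, 1.32-fold lower), and ZNF566 had 7.02 and 7.25 (-0.265). The antisense RNA was therefore lower in both pairs, and the sense gene in 1 of them. URB1-AS1 starts 121 bases from URB1, a factor of large ribosomal subunit assembly. It had 9.68 in miR-95 cells and 9.38 in control cells (0.265), whereas URB1 had 10.11 and 10.17 (-0.095).

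These 3 start regions are printed because antisense and sense transcription leave from the same stretch of DNA. Each window holds the 300 bases around the start of the antisense gene, read along its strand, and capitals run from the start of the sense gene to the start of the antisense gene. All are on the plus strand of GRCh38.p14, from RefSeq (ZNF674-AS1 at chrX:46545240-46545539, ZNF566-AS1 at chr19:36489377-36489676, URB1-AS1 at chr21:32392883-32393182).

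ZNF674-AS1: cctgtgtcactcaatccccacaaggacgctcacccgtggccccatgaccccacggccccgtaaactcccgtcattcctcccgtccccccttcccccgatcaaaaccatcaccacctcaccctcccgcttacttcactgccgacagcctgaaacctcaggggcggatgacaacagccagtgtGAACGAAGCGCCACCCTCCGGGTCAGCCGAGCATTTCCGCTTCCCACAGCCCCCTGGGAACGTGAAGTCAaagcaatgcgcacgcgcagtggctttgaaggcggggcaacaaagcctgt

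ZNF566-AS1: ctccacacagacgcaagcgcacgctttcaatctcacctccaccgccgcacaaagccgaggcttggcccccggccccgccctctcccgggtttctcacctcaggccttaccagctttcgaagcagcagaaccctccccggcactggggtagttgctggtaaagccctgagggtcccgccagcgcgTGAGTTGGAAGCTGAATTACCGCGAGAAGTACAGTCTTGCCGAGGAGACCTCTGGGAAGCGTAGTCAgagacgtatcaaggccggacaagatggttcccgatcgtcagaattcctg

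URB1-AS1: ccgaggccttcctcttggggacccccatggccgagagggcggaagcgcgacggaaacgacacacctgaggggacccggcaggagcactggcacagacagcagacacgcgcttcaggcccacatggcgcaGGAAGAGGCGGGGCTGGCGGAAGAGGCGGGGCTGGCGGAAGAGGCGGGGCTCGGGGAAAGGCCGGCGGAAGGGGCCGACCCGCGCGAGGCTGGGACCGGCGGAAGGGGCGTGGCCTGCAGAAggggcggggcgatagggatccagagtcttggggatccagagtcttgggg

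The ZNF674-AS1 and ZNF566-AS1 windows each held 1 GC box and the URB1-AS1 window 2 of them, counted over both strands, and none held CCAAT or TATAAA. The share of G and C was 62.0%, 60.7% and 71.3% for ZNF674-AS1, ZNF566-AS1 and URB1-AS1. Both zinc finger windows carried TTCCCAG on the reverse strand, inside the capitals close to the antisense start. This motif was chosen after the sequences were read, and 11.0% of all genes in the promoter table and 15.4% of the 117 noncoding RNA genes hold it on either strand. The URB1-AS1 window did not hold these letters.

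Over all 18 pairs on opposite strands with starts within 1000 bases, 7 differed in the same direction and 11 in opposite directions. The other 18 placed pairs had 12 in the same direction, and the 15 whose starts were not placed had 3. The distance was chosen with results known and the numbers are small, so these are counts only. ZBTB11-AS1 had 8.73 in miR-95 cells and 8.36 in control cells (0.335), while ZBTB11 had 10.87 and 10.91 (-0.075). ZNF503-AS2 and ZNF503, a transcriptional repressor, were both higher, with differences of 0.285 and 0.185. Among other close pairs, named after their values were seen, LPP-AS2 differed by 0.205 and LPP, a focal adhesion protein, by -0.215. BOK-AS1 differed by -0.125 and BOK, a pore-forming member of the BCL2 family, by 0.205. TMEM254-AS1 stood at -0.175 and TMEM254 at 0.185. BOK-AS1 had 6.92 in miR-95 cells and 7.01 in control cells. Like TMEM254-AS1 it reached the level limit on the control array alone, so the limit fixed the direction of both antisense genes before centring. STARD7-AS1 and STARD7, which carries phosphatidylcholine to mitochondria, differed by 0.155 and 0.115.

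Some sense genes of these pairs encode chromatin regulators, and those given here are named after their values were seen. PAXIP1-AS2 had 8.43 in miR-95 cells and 8.14 in control cells (0.255), while PAXIP1, a partner of histone H3 lysine methyltransferases, had 9.58 and 9.76 (-0.215). KANSL1-AS1 had 8.04 in miR-95 cells and 7.82 in control cells (0.185), while KANSL1, the scaffold of a histone acetyltransferase complex, had 10.79 and 10.97 (-0.215). JMJD1C-AS1 and JMJD1C, of the histone demethylase family, differed by 0.135 and -0.135. Other such pairs went otherwise: PCGF3-AS1 and PCGF3, a polycomb group protein, differed by -0.085 and -0.075, and WAC-AS1 and WAC, which takes part in histone ubiquitination, by -0.075 and 0.135.

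A further set of pairs, also named after their values were seen, holds genes of signalling, protein turnover and growth. MAP3K14-AS1 had 8.68 in miR-95 cells and 8.52 in control cells (0.125), and MAP3K14, the NF-kB inducing kinase, had 8.69 and 8.36 (0.295). USP2-AS1 had 7.15 in miR-95 cells and 6.92 in control cells (0.195), beside USP2, a deubiquitinase, at 0.265. USP2-AS1 reached the level limit on the miR-95 array alone, so the limit fixed its direction before centring. VPS9D1-AS1 and VPS9D1 differed by 0.225 and 0.155. PCNA-AS1, which has been described as stabilising PCNA messenger RNA in liver cancer cells, differed by -0.025 and PCNA, the sliding clamp of DNA replication, by -0.125. PDCD4-AS1, described as stabilising PDCD4 messenger RNA in breast cells, differed by 0.005, while PDCD4, a translation inhibitor, had 9.17 in miR-95 cells and 8.89 in control cells (0.245). SOCS2-AS1, an androgen-regulated RNA of prostate cancer cells, differed by 0.165 and SOCS2, a suppressor of cytokine signalling, by -0.055.

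The remaining antisense genes with large differences mostly lacked a sense gene at the limit or showed a sense gene near zero. FOXN3-AS1 had 7.48 in miR-95 cells and 6.99 in control cells (0.455, 1.37-fold higher), and FOXN3, a forkhead repressor of checkpoint genes, had 7.74 and 7.72 (-0.015). DHRS4-AS1 had a mean of 7.71 in miR-95 cells and 7.22 in control cells (0.455), and its 2 probe sets gave similar differences of 0.405 and 0.505. Their levels were far apart. One gave 9.12 in miR-95 cells and 8.68 in control cells, and the other 6.29 and 5.75, below the limit on both arrays. DHRS4-AS1 is known to silence the DHRS4 gene cluster in liver cells. DHRS4, a retinol dehydrogenase, was below the limit at 6.83 in miR-95 cells and 6.63 in control cells (0.165). DLG5-AS1 (0.365) and ATP2B1-AS1 (0.305) had no sense gene named on the arrays. FOXN3-AS1 and ATP2B1-AS1 reached the limit on the miR-95 array alone, so the limit fixed their direction before centring. On the lower side, THUMPD3-AS1 had 7.93 in miR-95 cells and 8.18 in control cells (-0.285), beside THUMPD3, a transfer RNA methyltransferase, at 0.055. THAP9-AS1 differed by -0.255, beside THAP9 at -0.035, below the limit. PAN3-AS1 (-0.205) stood beside PAN3, of a deadenylase complex, at -0.055.

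The 9 snoRNA host genes differed little between the arrays. All lay between -0.145 and 0.085, with 4 positive, 5 negative and a median of -0.025, the same as the median of all 8032 genes. GAS5, which accumulates in growth-arrested cells and whose transcript binds the glucocorticoid receptor, had 8.33 in miR-95 cells and 8.29 in control cells. DANCR, an RNA that holds back differentiation of progenitor cells, had 10.58 in miR-95 cells and 10.51 in control cells. SNHG17 had 9.41 and 9.29, SNHG15, a short-lived RNA, 9.39 and 9.30, and SNHG5 7.58 and 7.57, in the same order of arrays. SNHG10 had 8.30 in miR-95 cells and 8.41 in control cells, SNHG20 had 10.05 and 10.13, SNHG8 had 9.30 and 9.33, and SNHG18 had 7.75 and 7.77. No host gene thus reached 1.3-fold, which 5.19% of all 8032 genes passed. With 9 genes against 50 and 83 of the other kinds, neither that count nor a narrower range carries weight. According to RefSeq these 9 genes contain 23 snoRNA or small Cajal body RNA genes, 11 of them in GAS5. None of the 23 was among the 21 such symbols named on the arrays, so the small RNAs themselves could not be compared.

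**Figure D4:**
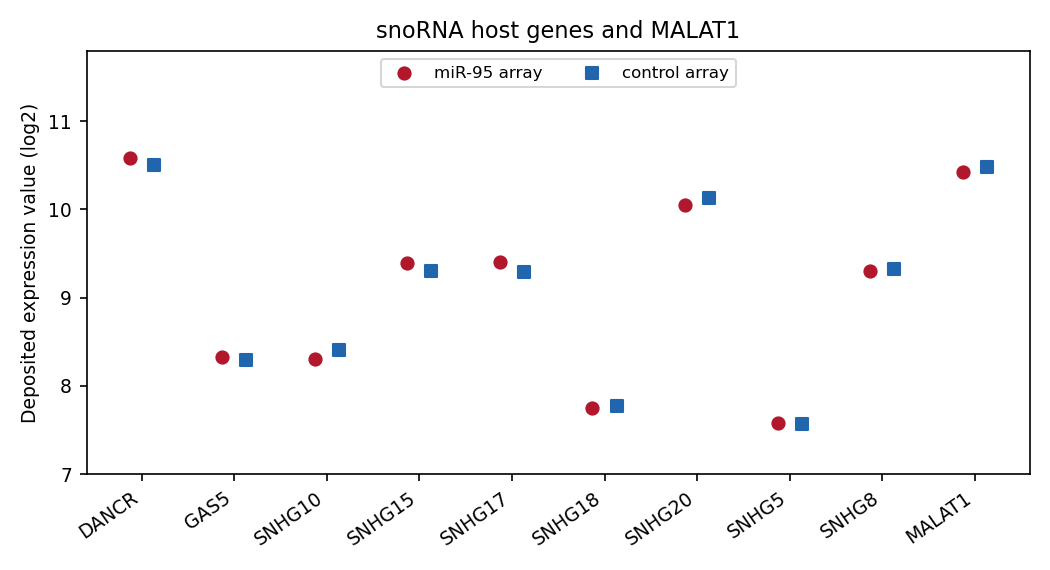
Deposited log2 values (vertical axis) on the miR-95 array (red circles) and the control array (blue squares) for the 9 snoRNA host genes and MALAT1. The largest difference after centring among these 10 genes is that of SNHG10, at -0.145, and values of different genes come from different probe sets and are not to be compared.

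Host genes of snoRNAs are known for a terminal oligopyrimidine tract, a run of pyrimidines that opens with C at the start of the transcript and ties its translation and decay to growth signalling. The starts of the host genes are shown for that reason, with 15 bases before and 35 from the annotated start. Capitals mark a C followed by at least 4 pyrimidines that begins within 5 bases of the start, searched along the gene's strand. Of the 9 host genes 8 were found in the promoter table (RefSeq, GRCh38.p14), and SNHG15 is named only.

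DANCR (chr4:52712379-52712428, plus strand): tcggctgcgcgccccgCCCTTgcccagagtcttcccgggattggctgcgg

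GAS5 (chr1:173869011-173869060, minus strand): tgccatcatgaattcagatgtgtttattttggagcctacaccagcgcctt

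SNHG10 (chr14:95534838-95534887, minus strand): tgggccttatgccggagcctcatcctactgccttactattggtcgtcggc

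SNHG17 (chr20:38435294-38435343, minus strand): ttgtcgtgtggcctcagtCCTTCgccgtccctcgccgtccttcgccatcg

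SNHG18 (chr5:9546185-9546234, plus strand): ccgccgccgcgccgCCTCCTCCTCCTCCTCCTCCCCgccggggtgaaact

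SNHG20 (chr17:77088628-77088677, plus strand): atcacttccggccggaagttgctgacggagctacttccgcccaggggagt

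SNHG5 (chr6:85678699-85678748, minus strand): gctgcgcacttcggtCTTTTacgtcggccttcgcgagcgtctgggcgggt

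SNHG8 (chr4:118278747-118278796, plus strand): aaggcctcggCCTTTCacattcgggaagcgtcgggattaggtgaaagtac

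By this definition 5 of the 8 starts (62.5%) held the tract, against 21.1% of all 27305 genes and 20.5% of the 117 noncoding RNA genes in the table. DANCR, SNHG17, SNHG18, SNHG5 and SNHG8 held it, with differences between -0.065 and 0.085. GAS5, SNHG10 and SNHG20 did not at their annotated starts, with differences between -0.145 and 0.005. The tract was found by letters alone at 1 annotated start per gene.

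MALAT1, an abundant RNA of nuclear speckles, was the sole individually named RNA at the limit. It had 10.43 in miR-95 cells and 10.48 in control cells, a difference of -0.085. Of the 12 noncoding RNA genes with the highest mean signals, among them MALAT1, none reached 1.3-fold, against 5.19% of all 8032 genes. With 12 genes such a count carries little weight. LINC01123 had 11.33 in miR-95 cells and 11.20 in control cells (0.095), LINC01106 had 11.11 and 11.09 (-0.015), and ZNF667-AS1 had 11.02 and 10.91 (0.075). PITPNA-AS1 was the most positive of the 12 at 0.195, and LINC00857 the most negative at -0.305. LINC01278 and LINC00294 each differed by -0.125. LINC01061 was read by 6 probe sets, whose differences ran between -0.035 and 0.135.

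Proteins that act with these RNAs were compared from lists chosen with earlier results of these data known. In none of the lists did a gene pass 1.5-fold either way, against 1.28% of all 8032 genes. Of 7 measured members of polycomb repressive complex 2, which many long noncoding RNAs have been reported to bind, 6 were negative (4 without centring) with a median of -0.145. RBBP4, a histone-binding subunit, had 10.66 in miR-95 cells and 11.12 in control cells (-0.495), and EZH2, the histone methyltransferase, had 9.79 and 10.10 (-0.345). PHF19, an accessory subunit, was positive at 0.185. Of 9 paraspeckle proteins 7 were negative (6 without centring, median -0.065), with SFPQ, a scaffold of these bodies, at -0.255. Of 6 snoRNA-binding proteins 5 were negative (4 without centring, median -0.125), among them SNU13 at -0.245 and the methyltransferase FBL at -0.165, while NHP2 differed by 0.085. The nuclear exosome and its adaptors, which degrade many antisense and promoter-derived RNAs, had 10 of 14 members negative with or without centring (median -0.115), between EXOSC9 at -0.235 and C1D at 0.115. Of 10 listed genes of the decay pathway that removes many snoRNA host transcripts, only 2 were named on the arrays. These were UPF1 and UPF2, which differed by -0.165 and -0.175. In the other lists 7 of 9 polycomb genes and 9 of 13 paraspeckle genes were named on the arrays. So were 6 of 8 genes of snoRNA-binding proteins and 14 of 17 of the exosome list. Over all 8032 genes 58.3% were negative after centring, the share against which the centred counts are to be read. Without centring 50.2% of the 8032 were positive, and the counts without centring are to be read against that.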

How the data were processed

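Total RNA of PC3 cells was measured on 1 Affymetrix array per line. The authors deposited log2 expression values per probe set. That scale was inferred: values run between 1.79 and 13.83 on the miR-95 array and between 1.94 and 13.84 on the control array. The software was Affymetrix Expression Console 1.2, per the submitters' processing notes. The sources used here do not give the background correction, summarisation or scaling, steps that can compress the differences of weak signals.

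Of 23641 probe sets, 14088 (59.6%) had 1 gene symbol in the platform annotation and 9553 had none and were left out. Probe sets of a gene were averaged, each array was centred on its median over named genes (7.495 for miR-95, 7.46 for control), and the control value was subtracted from the miR-95 value. Symbols came from the platform annotation. Gene classes, neighbours and sequences came from RefSeq (GRCh38.p14), in which all symbols of the 143 genes were found and 117 had a promoter. Python 3.11.15, numpy 2.4.6, pandas 2.3.3, statsmodels 0.14.6 and matplotlib 3.10.9 were used, and the steps were tested on simulated data. The number of arrays, 1 per group, limits the precision, and no test was made.

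The genes, lists and limits were chosen with earlier results of these data known. Genes named by rule were those past 1.5-fold, the 12 with the largest difference each way, the 12 with the highest mean value, the snoRNA hosts, individually known RNAs, antisense genes where either of the pair passed 1.3-fold, and the 3 nearest the limit on each side. MIF-AS1 tied with the 3 inside the limit and was not among them. Alternatives were no centring, loess (span 0.4) or quantile scaling, the brightest probe set, other level limits and current RefSeq symbols.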

Additional observations from a re-analysis of the deposited data

How the results depend on the processing

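Current RefSeq symbols changed no symbol, so that alternative repeats the main values and could not differ from them. The count of noncoding RNA genes past 1.5-fold was 1 with the values as deposited, with loess and with quantile normalization. It was also 1 with limits of 8.0 on the higher value or 7.0 on both. It was 2 with the brightest probe set of a gene, where LINC00173 joined at 0.84, and 5 of 633 with no limit on the level. Over all genes, 32 were higher and 64 lower of 8044 with the brightest probe set. With no limit 59 were higher and 128 lower of 13864. LINC02035 ranged between 0.835 and 0.87. The median of the noncoding RNA genes lay between 0.015 and 0.06 where a limit was kept, above the median of all genes each time, and was -0.015 against -0.025 with none. Without centring all medians shift up by 0.035, and the snoRNA host median became 0.01. Pairs with the same sign numbered 19 to 22 of 51 under the other scalings and the brightest probe set, 17 of 40 with 7.0 on both arrays, 7 of 16 at 8.0 and 97 of 200 without a limit, where fewer or more pairs enter by construction. Leaving out HAS2-AS1 or ANXA2R-OT1, choices made after seeing the data, each gave 21 of 50. Of 45 named genes, ASB16-AS1 and LINC01106 changed sign under all 3 other scalings and SNHG5 without centring. Among all genes past 1.5-fold 68.9% were lower on the miR-95 array, against 56.2% without centring, 59.6% with loess and 59.1% with quantile normalization. No paired analysis was possible because each group has 1 array. Genes near the limit of 7.0 have weak signal, and no value here holds the variation between cultures.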
